A study of Homo sapiens with 3 samples.

Results

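Ribosome biogenesis and nucleolar genes encode the proteins that transcribe ribosomal RNA in the nucleolus, modify and cut it, and fold it with ribosomal proteins into the small and the large subunit. The list holds 52 genes of known function in this pathway and was drawn up with earlier results of these data in view. A gene had a value when at least 1 probe set, a group of short probes on the array, was annotated to that gene alone and had a mean signal of 20 or more over the 3 arrays. By this rule 46 of the 52 listed genes were measured, of 11330 genes measured on the arrays, and 0 of them were lost to the filter on level. Of their 97 probe sets, 84 passed. BOP1, DKC1, NOP56 and PPAN had only probe sets annotated to several genes, and GNL3 and DDX18 had no entry in the annotation used here, so these 6 have no value. The dimmest probe set just inside the filter was 1 of NOP16, with a mean signal of 28.0, and the brightest just outside were 1 of RRP12 and 1 of NOP16, both with a mean of 18.1.

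The arrays were hybridised with RNA of MM1S, a human cell line from multiple myeloma, which is a cancer of plasma cells. Untreated cells, labelled 0 h, gave 1 array, cells cultured with 10 nM FK866 for 6 h gave 1 array, and cells cultured with 10 nM FK866 for 24 h gave 1 array, all grown in the same serum-supplemented medium. FK866 inhibits NAMPT, the enzyme that recycles nicotinamide into NAD. Each comparison asks how transcripts in treated cells differed from untreated cells, early and late. With 1 array per group 0 tests were run, no difference has a replicate check, and treatment cannot be told apart from time in culture. Less transcript in each cell and a smaller share of total RNA cannot be told apart either.

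Values are deposited signals in arbitrary units, signals under 16 were raised to 16, and differences are on the log2 scale. A gene with several kept probe sets has the value of the brightest one. Probe sets of 1 gene can disagree, and their spread, pooled over the 25 measured members with several, was an SD of 0.25 at 6 h and 0.25 at 24 h against untreated cells. It covers probe error and isoforms, not differences between cultures. All 9 plasma cell markers were measured, with a summed signal between 36056 and 37750, whereas 0 of 6 T and NK cell markers, 2 of 6 myeloid markers and 1 of 6 stromal markers passed the filter. The summed signals of those 3 lists lay between 32.2 and 155 on every array.

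The arrays were not on exactly the same scale. The median of all genes was -0.10 at 6 h and -0.13 at 24 h relative to untreated cells, shifts that apply to the members too. Control RNAs added at hybridisation differed by a median of -0.16 at 6 h and -0.19 at 24 h over 12 bright probe sets. Poly-A control RNAs, which are labelled together with the cell's RNA, differed by -0.30 at 6 h, 0.25 at 24 h and 0.56 between 24 h and 6 h, over 10 bright probe sets. These spikes were thus lowest on the 6 h array, as most members were, and their part in the results was not tested. The ACTB signal of the 3′ over the 5′ probe set, which grows as RNA breaks down, was a log2 value of 2.25 in untreated cells, 2.55 after 6 h and 2.33 after 24 h, and that of GAPDH was 0.24, 0.20 and 0.32 in the same order. These too were not tested against the members' values.

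In this pathway RNA polymerase I copies the ribosomal DNA into a long precursor. Small nucleolar ribonucleoproteins (snoRNPs) of the box C/D class then guide ribose methylation or cleavage of the precursor, and those of the box H/ACA class guide the change of uridine to pseudouridine. A first large assembly, the small subunit processome, shapes the future small subunit, while separate assembly factors mature the large one. The genes are known as targets of the transcription factor MYC, which binds the E-box CACGTG, and they are highly active in dividing cancer cells.

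Promoter sequences of 4 members are shown because 2 of them, RRP9 and TAF1D, were among the lowest at 6 h, and 2 others, NAT10 and UTP20, were the highest at 24 h. Each runs from 240 bases before to 10 bases after the start of the gene, 5′ to 3′ on the strand of the gene, from RefSeq on GRCh38.p14. Capitals mark CACGTG, which reads the same on both strands.
RRP9, chr3:51941895-51942144, minus strand: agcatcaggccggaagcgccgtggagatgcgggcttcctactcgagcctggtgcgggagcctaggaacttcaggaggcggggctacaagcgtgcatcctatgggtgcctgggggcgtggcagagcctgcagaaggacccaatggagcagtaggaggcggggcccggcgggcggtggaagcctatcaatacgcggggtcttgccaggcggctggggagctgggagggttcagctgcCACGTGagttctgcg
TAF1D, chr11:93741486-93741735, minus strand: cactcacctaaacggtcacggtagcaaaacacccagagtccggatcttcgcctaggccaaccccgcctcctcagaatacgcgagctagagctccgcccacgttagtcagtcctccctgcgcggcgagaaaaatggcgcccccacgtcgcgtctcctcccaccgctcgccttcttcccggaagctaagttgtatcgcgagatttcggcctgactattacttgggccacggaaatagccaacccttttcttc
NAT10, chr11:34105389-34105638, plus strand: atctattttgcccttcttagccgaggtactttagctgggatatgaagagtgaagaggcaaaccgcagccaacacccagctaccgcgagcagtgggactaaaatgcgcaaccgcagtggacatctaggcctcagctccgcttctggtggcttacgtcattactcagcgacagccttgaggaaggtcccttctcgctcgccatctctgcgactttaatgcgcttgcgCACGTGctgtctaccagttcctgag
UTP20, chr12:101279865-101280114, plus strand: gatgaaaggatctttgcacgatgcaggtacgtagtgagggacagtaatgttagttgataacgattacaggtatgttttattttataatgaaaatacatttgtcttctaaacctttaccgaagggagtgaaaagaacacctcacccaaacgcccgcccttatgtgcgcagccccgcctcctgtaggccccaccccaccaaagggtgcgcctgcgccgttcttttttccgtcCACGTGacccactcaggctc
The E-box lay across the start in RRP9, with its first base 5 bases before it, and began 15 bases before the start in NAT10 and 10 bases before it in UTP20. In TAF1D these letters were not found in the window. RefSeq windows of 300 bases, from 250 before to 50 after the start, were at hand for 39 of the 46 measured members, and 15 of these (38.5%) held CACGTG. The share was 7.43% over 27305 promoters and 10.5% over the 9285 measured genes with a window. In 14 of the 15 members a copy began within 20 bases of the start, on either side. The position was not computed for other promoters with CACGTG, so it was not shown to be particular to the members. A match of letters is a description of the promoter, not evidence that a factor was bound.

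Most members had their lowest signal on the 6 h array. At 6 h 39 of 46 differed from untreated cells by less than 0, or 84.8%, against a background of 63.4% of all genes. Their median difference was -0.25, against -0.10 for all genes. The share below 0 was as high, 86.4%, among 59 cytosolic ribosomal protein genes, at a median of -0.06. After quantile normalization 30 of 46 members lay below 0, against 5089 of 11330 genes. The medians were then -0.10 for the members and 0.03 for all genes. Few differences were large: 3 of 46 members were at least 1.5-fold lower at 6 h (6.52%, against a background of 10.5%) and 0 at least 1.5-fold higher (background 5.38%). The 7 members above 0 stood against a background of 36.5%. Only POLR1E was 2-fold lower, where 3.12% of all genes were, and 0 members were 2-fold higher, where 1.46% were. The shares past 1.5-fold thus lay below the background in both directions, but when probe sets prone to cross-hybridisation were left out 5 of 34 members were 1.5-fold lower, a share above the 12.1% of all genes. Most members were bright, and among the 6076 genes with a mean signal of 200 or more, 4.87% were 1.5-fold lower and 2.39% 1.5-fold higher at 6 h, against 2 and 0 of the 43 members of that level. The balance of all genes depended on the scaling: at 6 h 609 were higher and 1186 lower by 1.5-fold as deposited, and 1030 higher and 726 lower after quantile normalization.

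At 24 h the members were close to the median gene. Of 46, 31 lay below 0, or 67.4%, against a background of 65.6%, and their median was -0.08, against -0.13 for all genes. The sign of this median depended on the scaling, since it was 0.10 after quantile normalization and 0.05 after subtraction of the median gene difference. Only POLR1E was at least 1.5-fold lower (2.17%, background 13.2%), and 0 members were 1.5-fold higher (background 4.55%). The other 15 members lay above 0 (background 34.3%), and 0 members were 2-fold lower or higher (backgrounds 4.02% and 1.11%). Among genes with a mean signal of 200 or more the backgrounds were 7.16% lower and 1.88% higher by 1.5-fold, against 1 and 0 of the 43 members. Over all genes 515 were higher and 1496 lower as deposited, and 1046 and 829 after quantile normalization.

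Between the treated arrays, 36 of 46 members were higher at 24 h than at 6 h, against a background of 44.6% of all genes, and their median difference was 0.13, against -0.04 for all genes. RRP9 was the only one at least 1.5-fold higher (2.17%, background 4.72%), and 0 were 1.5-fold lower (background 7.56%). The other 10 members lay below 0 (background 55.2%), and 0 members were 2-fold higher or lower (backgrounds 1.05% and 1.84%). With a mean signal of 200 or more 0 of the 43 members passed 1.5-fold, where 1.22% of genes were higher and 2.68% lower. The 6 h array was thus the lowest of the 3 for 32 of 46 members (69.6%), against a background of 34.2%. Of these 32, 23 were still below untreated cells at 24 h and 9 were at or above. Of the 3873 genes lowest at 6 h, 2470 were still below at 24 h and 1403 were at or above. After quantile normalization the 6 h array was the lowest for 29 members (63.0%, against 29.2% of all genes). It was the lowest for 30 after subtraction of the median gene difference (65.2%, against 31.0%). The 3 comparisons share arrays, so these counts are not independent of each other. Of the 84 kept probe sets of the members, 69 were below 0 at 6 h (82.1%, against 65.0% of all kept probe sets) and 53 at 24 h (63.1%, against 67.3%). All kept probe sets lay below 0 at 6 h in 14 of the 25 members with several, none in 1, and they were mixed in 10. The same count is not given over the 5709 genes with several kept probe sets, so these numbers have no background here.

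**Figure D1:**
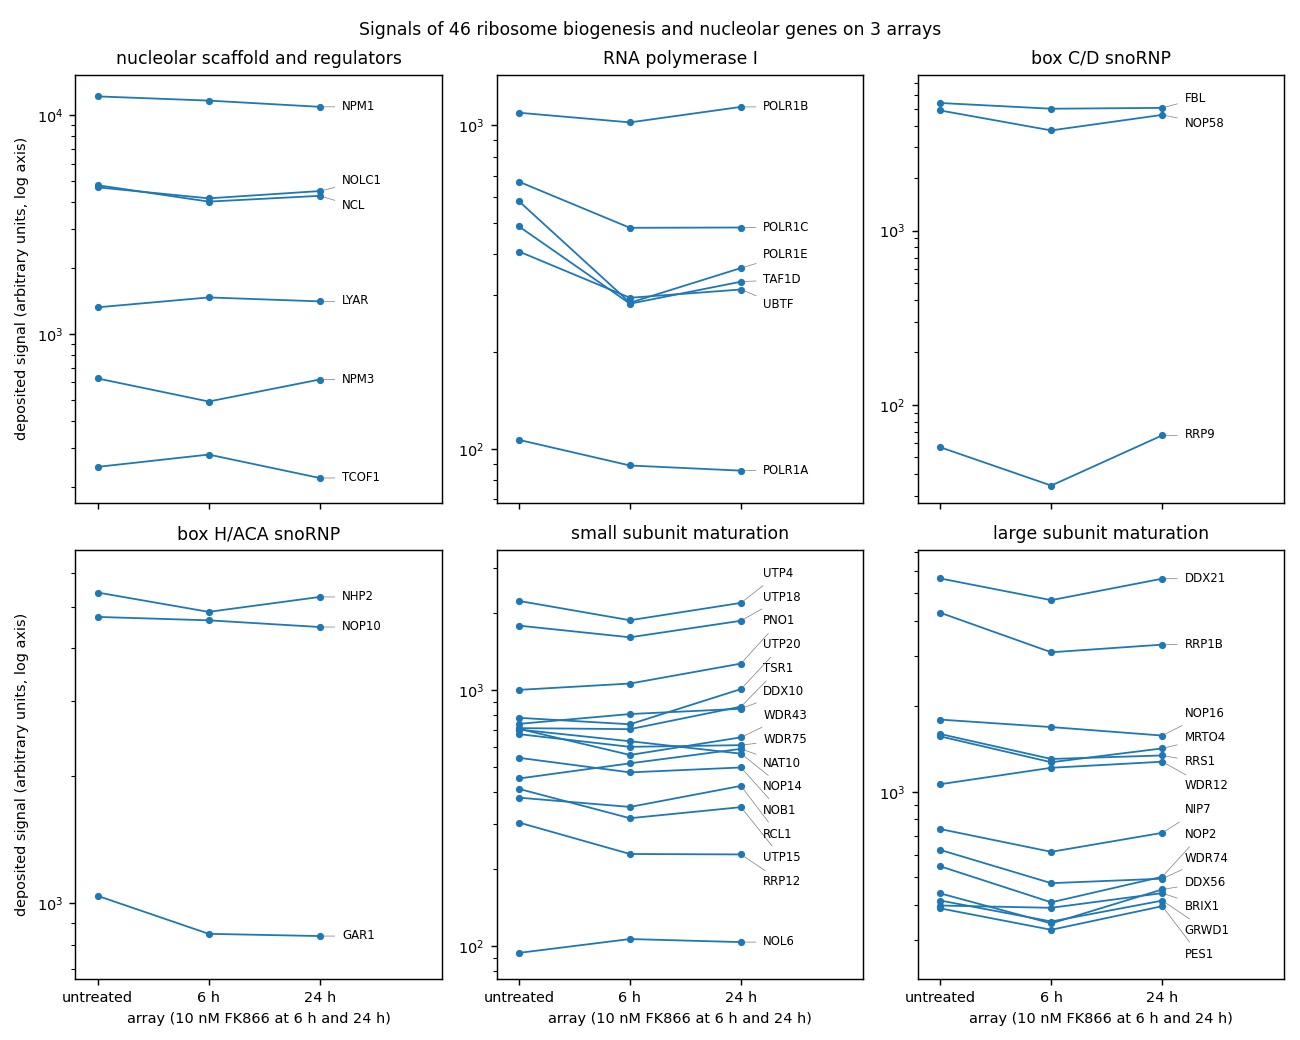
Deposited signal (log axis, arbitrary units) of each of the 46 measured members on the untreated, 6 h and 24 h arrays, in 6 panels by role. Points are single arrays and lines join the same gene; 32 of 46 genes have their lowest point at 6 h, and levels of different genes are not comparable because each has its own probes.

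The 6 members of the RNA polymerase I group had the lowest medians of the 6 role groups by their brightest probe sets. The 10 other measured polymerase I genes, described further below, lay higher, with medians of -0.15 at 6 h and -0.22 at 24 h. At 6 h 6 of the 6 members lay below untreated cells (background 63.4%), with a median of -0.47. At 24 h 5 of the 6 did (background 65.6%), with a median of -0.43. The group medians stayed below 0 under every alternative tried, between -0.47 and -0.31 at 6 h and between -0.47 and -0.20 at 24 h. Their place as the lowest group at 6 h did not hold throughout: the box C/D group had -0.38 against -0.31 for polymerase I by the mean over probe sets, and -0.56, over 2 genes, against -0.42 when probe sets prone to cross-hybridisation were left out.

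POLR1E, a subunit that helps the polymerase to start, had a signal of 583 in untreated cells, 283 after 6 h and 363 after 24 h. Relative to untreated cells the signal was lower 2.06-fold at 6 h and 1.61-fold at 24 h. Its 3 probe sets lay between -1.07 and -0.29 at 6 h and between -0.78 and -0.55 at 24 h, so each of them was lower on both treated arrays. After quantile normalization the 24 h difference was -0.55 and no longer reached 1.5-fold. TAF1D, part of the SL1 complex that marks the ribosomal DNA promoter, had a signal of 488 in untreated cells, 281 after 6 h and 329 after 24 h. Its single probe set was lower 1.73-fold at 6 h and 1.48-fold at 24 h. In both genes the 6 h array was the lowest.

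POLR1C, a subunit shared by RNA polymerases I and III, had a signal of 670.2 in untreated cells, 483 after 6 h and 484 after 24 h. Its differences were -0.47 at both times, and its second probe set lay at -0.36 and -0.09. UBTF, which binds the ribosomal DNA along its length and helps to build the transcription complex, had a signal of 408 in untreated cells, 293.5 after 6 h and 311 after 24 h. Its brightest probe set differed by -0.47 and -0.39, but its 4 probe sets ranged from -0.47 to 0.32 at 6 h and from -0.39 to 0.32 at 24 h. The probe sets of UBTF therefore did not share a direction. The 2 largest subunits differed less by their brightest probe sets. POLR1A, the largest, had a signal of 107 in untreated cells, 89.0 after 6 h and 85.8 after 24 h. Of its 3 probe sets, the second, nearly as bright, lay at -0.46 and -0.29, and the dimmest at 0.12 and 0.24. POLR1B, the second largest, had a signal of 1095 in untreated cells, 1022 after 6 h and 1141 after 24 h, with 4 probe sets between -0.25 and 0.06 at 6 h.

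**Figure D2:**
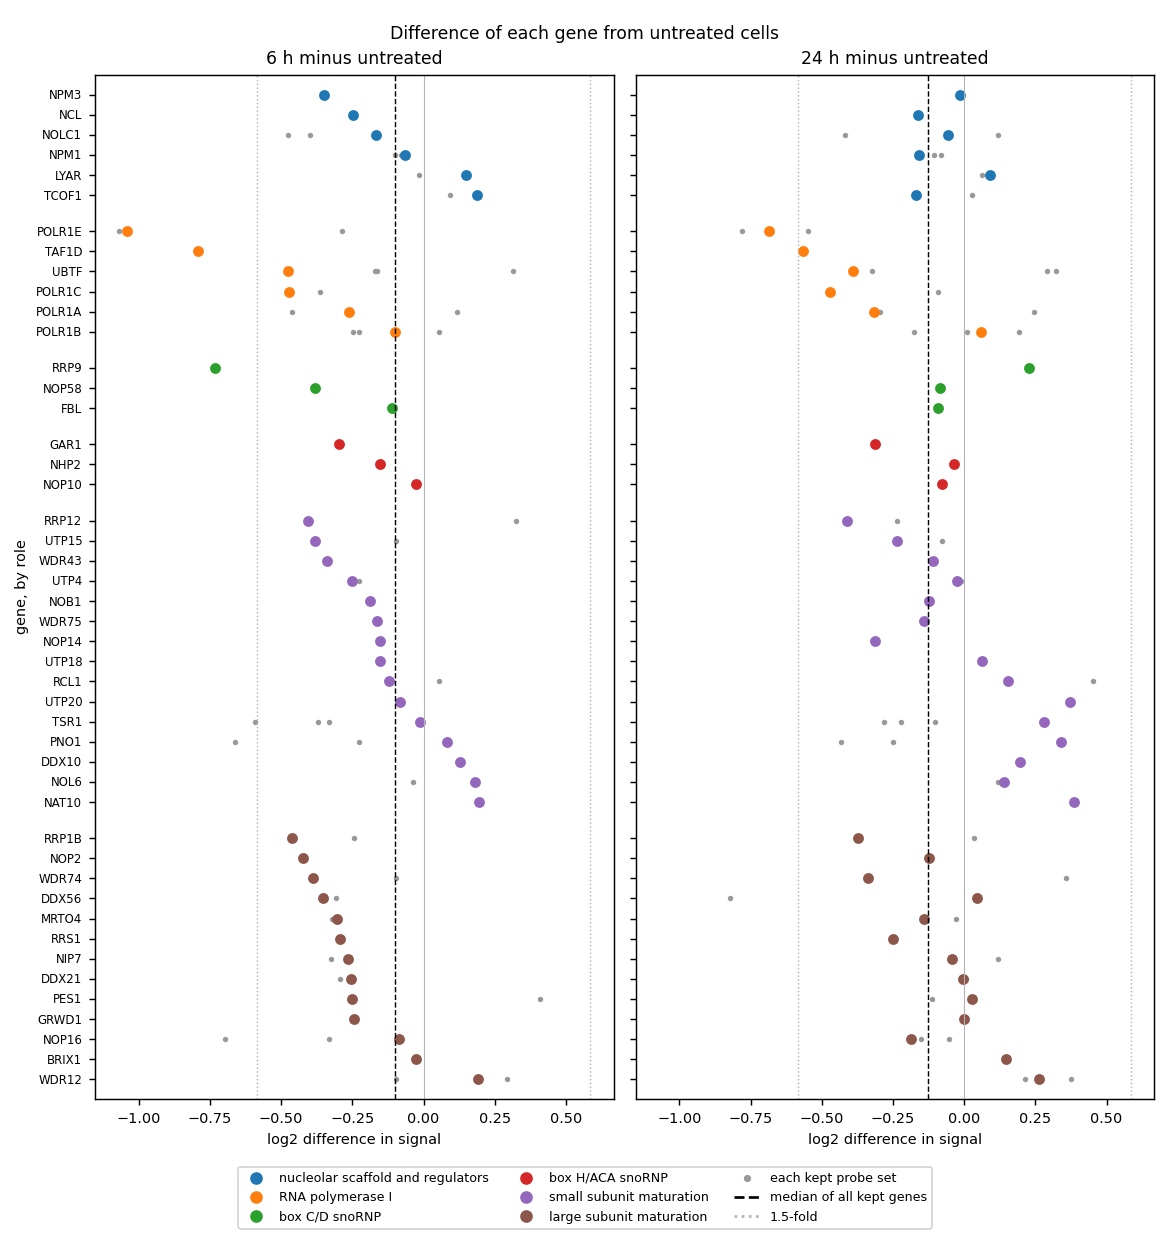
Log2 difference from untreated cells at 6 h (left) and 24 h (right) for each measured member, grouped by role; the large point is the brightest probe set, small grey points are the kept probe sets, the dashed line is the median of all genes (-0.10 and -0.13) and dotted lines mark 1.5-fold. POLR1E, TAF1D and RRP9 lie past 1.5-fold at 6 h and only POLR1E at 24 h.

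Among the box C/D snoRNP proteins, RRP9 differed most. RRP9 binds the U3 snoRNA, which the first cuts of the precursor need, and it had a signal of 57.1 in untreated cells, 34.4 after 6 h and 66.8 after 24 h. It was 1.66-fold lower at 6 h and 1.17-fold higher at 24 h than in untreated cells, and 1.94-fold higher at 24 h than at 6 h. It was the dimmest member and had 1 probe set, and after quantile normalization its 6 h difference was -0.52, short of 1.5-fold. NOP58, a core protein of the box C/D particles, had a signal of 4883 in untreated cells, 3752 after 6 h and 4607.5 after 24 h, a difference of -0.38 at 6 h and -0.08 at 24 h. FBL, the methyltransferase fibrillarin, had a signal of 5389.6 in untreated cells, 4996.5 after 6 h and 5054 after 24 h, so its differences of -0.11 and -0.09 were close to those of the median gene.

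The box H/ACA proteins were nearer to their untreated signals. GAR1 had a signal of 1042 in untreated cells, 848 after 6 h and 838 after 24 h, with differences of -0.30 and -0.31. NHP2 had a signal of 5394 in untreated cells, 4858 after 6 h and 5267 after 24 h. NOP10 had a signal of 4726 in untreated cells, 4640 after 6 h and 4474 after 24 h. Of these 3 core proteins of the pseudouridine-forming particle, NHP2 and NOP10 lay within 0.16 of 0 in both comparisons with untreated cells, and each had a single probe set.

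The abundant nucleolar proteins differed little. NPM1, nucleophosmin, a histone chaperone and the main constituent of the outer nucleolus, had a signal of 12173.5 in untreated cells, 11647 after 6 h and 10907 after 24 h. Its 3 probe sets lay between -0.10 and -0.06 at 6 h and between -0.16 and -0.08 at 24 h, the narrowest range of any member with 3 probe sets at 6 h. NCL, nucleolin, which binds ribosomal DNA and RNA, had a signal of 4777 in untreated cells, 4020.1 after 6 h and 4271 after 24 h. NOLC1, a chaperone of snoRNPs, had a signal of 4672 in untreated cells, 4160.5 after 6 h and 4492 after 24 h. Its 3 probe sets were between -0.48 and -0.17 at 6 h, and between -0.42 and 0.12 at 24 h.

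NPM3, a relative of NPM1, was the lowest of this group at 6 h, with a signal of 624 in untreated cells, 489.6 after 6 h and 617 after 24 h, a difference of -0.35 at 6 h and -0.02 at 24 h. LYAR, a nucleolar zinc finger protein, was slightly higher on both treated arrays, with a signal of 1321 in untreated cells, 1465 after 6 h and 1406 after 24 h. By the brightest probe sets TCOF1, the treacle protein that brings polymerase I factors to the ribosomal DNA, was the only member lower at 24 h and higher at 6 h than untreated. Its signal was 246 in untreated cells, 280 after 6 h and 219 after 24 h, a difference of -0.36 between the treated arrays, where its second probe set lay at -0.07. That second probe set, nearly as bright, lay above untreated cells at both times, at 0.09 and 0.03.

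Factors of the small subunit were split. At 6 h 11 of 15 lay below untreated cells (73.3%, not far from the 63.4% of all genes), with a median of -0.15. Past 1.5-fold at 6 h were 0 of them, against backgrounds of 10.5% lower and 5.38% higher. At 24 h 8 of 15 lay above (background 34.3%), with a median of 0.06. This sign did not hold by the mean over probe sets, where the median was -0.08, or over the 10 genes left without probe sets prone to cross-hybridisation, where it was -0.12. For 9 of 15 the 6 h array was the lowest (60.0%, background 34.2%).

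NAT10, which acetylates 18S ribosomal RNA, was the highest member at 24 h, with a signal of 452 in untreated cells, 518 after 6 h and 589.6 after 24 h. It was 1.31-fold higher at 24 h. UTP20, a very large scaffold protein of the processome, had a signal of 779 in untreated cells, 735 after 6 h and 1008 after 24 h. It was 1.29-fold higher at 24 h than untreated and 1.37-fold higher than at 6 h. Both rest on a single probe set, and both lay above the median gene at 24 h by more than 0.25. PNO1, an assembly factor that guards the immature end of 18S RNA, had a signal of 1001 in untreated cells, 1059.7 after 6 h and 1268 after 24 h. Its other probe sets disagreed, since the 3 ranged from -0.43 to 0.34 at 24 h. TSR1, a late factor that resembles a GTPase, had a signal of 710.2 in untreated cells, 704 after 6 h and 861.5 after 24 h. Here too 3 of its 4 probe sets lay below 0 at 24 h, down to -0.28, and all 4 lay below 0 at 6 h, between -0.59 and -0.01.

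At the lower end of this group stood RRP12 and UTP15. RRP12, which helps to export the subunits, had a signal of 304 in untreated cells, 229 after 6 h and 228.5 after 24 h, with differences of -0.41 at both times, while its dim second probe set lay at 0.33 and -0.24. UTP15, part of the first complex to join the precursor, had a signal of 411.5 in untreated cells, 316 after 6 h and 349 after 24 h, and both its probe sets were below 0 at both times. Partners of UTP15 in that complex, WDR43 and UTP4, were also lowest at 6 h. WDR43 had a signal of 706 in untreated cells, 558 after 6 h and 654 after 24 h. UTP4 had a signal of 2225 in untreated cells, 1871 after 6 h and 2186 after 24 h, and its second probe set gave nearly the same differences, -0.23 and -0.01 beside -0.25 and -0.03. WDR75, of the same complex, had a signal of 673 in untreated cells, 600.3 after 6 h and 609.5 after 24 h.

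The remaining small subunit factors stayed within 0.32 of 0 at both times by their brightest probe set. NOP14, a scaffold protein of the processome, had a signal of 701 in untreated cells, 631 after 6 h and 565 after 24 h, the only one of these to be lowest at 24 h. UTP18, which recruits the exosome to the processome in yeast, had a signal of 1782 in untreated cells, 1605 after 6 h and 1862 after 24 h. NOB1, the nuclease that makes the final cut of 18S RNA, had a signal of 544 in untreated cells, 477 after 6 h and 499 after 24 h. For UTP18 and NOB1 the 6 h array was again the lowest. RCL1, a processome protein related to RNA cyclases, had a signal of 380.4 in untreated cells, 350 after 6 h and 423 after 24 h. Its second probe set, nearly as bright, lay at 0.05 at 6 h and 0.45 at 24 h. The helicase DDX10 had a signal of 738 in untreated cells, 806 after 6 h and 845 after 24 h. NOL6, another processome protein, had a signal of 94.4 in untreated cells, 107 after 6 h and 104 after 24 h, so DDX10 and NOL6 were higher on both treated arrays.

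Factors of the large subunit had the narrowest range between quartiles of the 6 role groups at 6 h. Of 13, 12 lay below untreated cells (92.3%, background 63.4%), with a median of -0.27 and quartiles of -0.35 and -0.25. Past 1.5-fold at 6 h were 0 of them, against backgrounds of 10.5% lower and 5.38% higher. At 24 h 9 of 13 lay below (69.2%, background 65.6%), with a median of -0.04, which became 0.11 after quantile normalization. Signals were lowest on the 6 h array for 11 of 13 (84.6%, background 34.2%). From 6 h to 24 h 12 of 13 were higher (background 44.6%).

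RRP1B, a nucleolar regulator of protein phosphatase 1, was the lowest of the group at both times, with a signal of 4273 in untreated cells, 3100 after 6 h and 3298 after 24 h. Its differences were -0.46 and -0.37, and its dimmer second probe set lay at -0.24 and 0.04. NOP2, a methyltransferase of 28S RNA, had a signal of 546 in untreated cells, 407.5 after 6 h and 501.5 after 24 h, a difference of -0.42 at 6 h and -0.12 at 24 h. WDR74, which acts with the RNA exosome, had a signal of 623.5 in untreated cells, 476 after 6 h and 494 after 24 h, but its second probe set lay at 0.36 at 24 h. In all 3 the 6 h array was the lowest.

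DDX21, a helicase that also acts in polymerase I transcription, had 2 bright probe sets that closely matched. Its signal was 5643 in untreated cells, 4731.5 after 6 h and 5632 after 24 h, and the second probe set had 4838 in untreated cells, 3951 after 6 h and 4857 after 24 h. Both probe sets were thus lower at 6 h, by -0.25 and -0.29, and within 0.01 of 0 at 24 h. The helicase DDX56 had a signal of 438 in untreated cells, 343 after 6 h and 452 after 24 h, with its second, dim probe set at -0.82 at 24 h. PES1 and WDR12 belong to the PeBoW complex, which matures the large subunit. PES1 had a signal of 388 in untreated cells, 326 after 6 h and 395 after 24 h, while its dim second probe set lay at 0.41 and -0.11. WDR12 had a signal of 1062.5 in untreated cells, 1214 after 6 h and 1275 after 24 h, the highest of the group at both times, with its 3 probe sets between -0.10 and 0.29 at 6 h and between 0.22 and 0.37 at 24 h.

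NIP7, MRTO4, GRWD1 and RRS1 lay close together at 6 h, between -0.30 and -0.25. NIP7, which acts in precursor processing, had a signal of 738.5 in untreated cells, 614 after 6 h and 716 after 24 h. MRTO4, a relative of the ribosomal stalk protein P0, had a signal of 1567 in untreated cells, 1270 after 6 h and 1421 after 24 h. Both kept probe sets of NIP7 and of MRTO4 were below 0 at 6 h, between -0.32 and -0.27. GRWD1, a histone-binding protein that also chaperones a ribosomal protein of the large subunit, had a signal of 413.5 in untreated cells, 349 after 6 h and 413 after 24 h. RRS1, which helps to bring the 5S ribonucleoprotein into the large subunit, had a signal of 1597 in untreated cells, 1304 after 6 h and 1342 after 24 h. GRWD1 was close to its untreated signal at 24 h, whereas RRS1 was still at -0.25. NOP16, an early large subunit factor, had a signal of 1795 in untreated cells, 1689 after 6 h and 1577 after 24 h, with 3 probe sets between -0.70 and -0.09 at 6 h. BRIX1, a member of the Brix family of assembly factors, had a signal of 397 in untreated cells, 389.8 after 6 h and 439 after 24 h, the smallest difference of the group at 6 h.

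**Figure D3:**
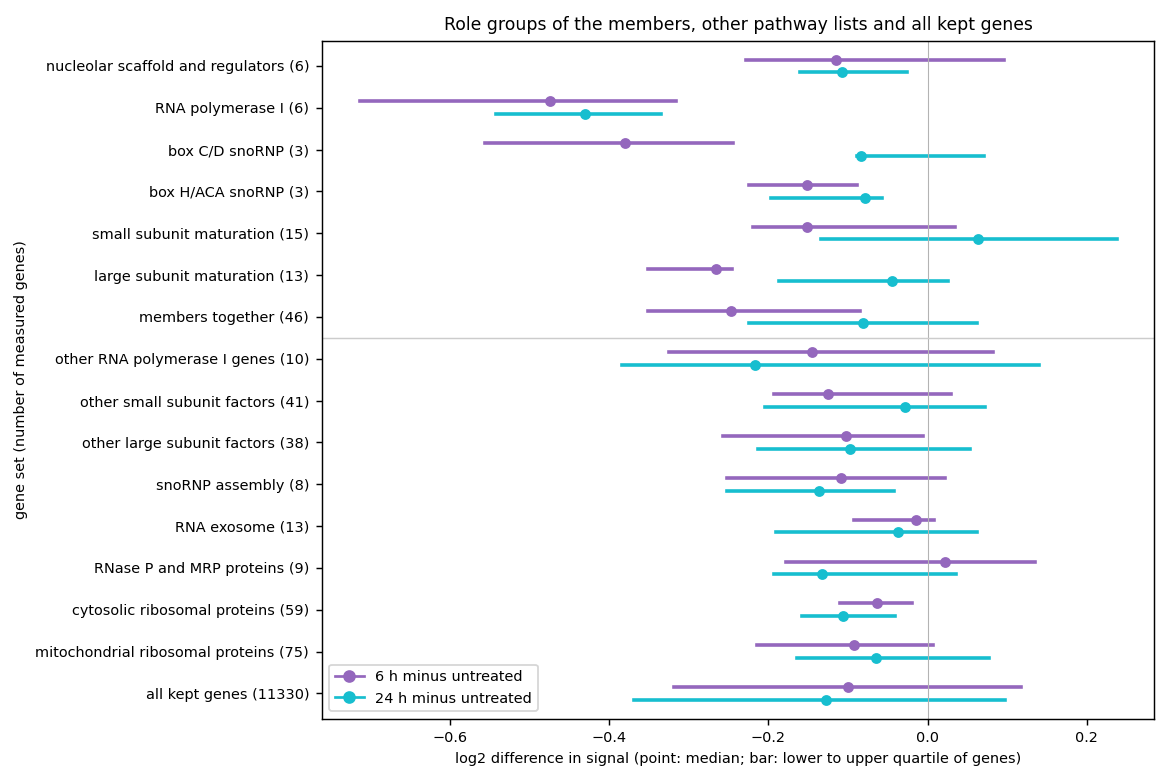
Median (point) and lower to upper quartile (bar) of the log2 differences from untreated cells at 6 h and 24 h, for the 6 role groups, the members together, 6 other lists of the pathway, the ribosomal proteins and all genes. The polymerase I group of 6 members lies lowest at both times, with medians of -0.47 and -0.43. The list of 10 other polymerase I genes has medians of -0.15 and -0.22.

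Other genes of the pathway, not on the list of members, did not lie as low at 6 h. Over 6 further lists with 119 measured genes the median was -0.09 at 6 h and -0.07 at 24 h, close to the median gene at both times. Of the 119 genes, 1 was at least 1.5-fold lower at 6 h (0.84%, background 10.5%) and 2 at 24 h (1.68%, background 13.2%). At either time 0 were 1.5-fold higher (backgrounds 5.38% at 6 h and 4.55% at 24 h). Signals were lowest at 6 h for 47 of 119 (39.5%, background 34.2%). The gap to all genes was wider by the mean over probe sets (44.5%, against 35.5%). It was also wider without probe sets prone to cross-hybridisation (42 of 87, or 48.3%, against 33.8%), and narrower after quantile normalization (31.9%, against 29.2%). The difference between these genes and the members was not tested.

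Among 10 further polymerase I genes, TAF1C, another subunit of the SL1 complex, was the lowest, with a signal of 97.2 in untreated cells, 62.8 after 6 h and 51.4 after 24 h, or 1.55-fold and 1.89-fold lower. It was the only one of the 119 genes past 1.5-fold at both times. TAF1B, of the same complex, was the highest, with a signal of 246 in untreated cells, 306 after 6 h and 322 after 24 h. TAF1C and TAF1B thus differed in direction by their brightest probe sets, and TAF1C rests on 1 dim probe set. The list median was -0.15 at 6 h and -0.22 at 24 h, with 6 of 10 below 0 each time (backgrounds 63.4% and 65.6%).

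The 41 other small subunit factors had medians of -0.12 at 6 h and -0.03 at 24 h, from DDX52 (-0.40) to UTP3 (0.43) at 6 h and from BMS1 (-0.49) to UTP3 (0.55) at 24 h. The 38 other large subunit factors had medians of -0.10 at both times. There MDN1, a giant ATPase that remodels the precursor, was the lowest at 6 h, with a signal of 204 in untreated cells, 141 after 6 h and 224 after 24 h, and 1.59-fold higher at 24 h than at 6 h. DDX54 was the highest at 6 h (0.32), and DDX31 (-0.49) and MAK16 (0.46) were the ends of the list at 24 h. The lists of snoRNP assembly, the RNA exosome, and RNase P and MRP had 8, 13 and 9 measured genes, with medians between -0.11 and 0.02 at 6 h and between -0.14 and -0.04 at 24 h. NAF1, which assembles box H/ACA particles, was 1.63-fold lower at 24 h, with a signal of 637 in untreated cells, 502 after 6 h and 389.7 after 24 h. The other ends of these lists were NUFIP1 (-0.49) and SHQ1 (0.40) for assembly, EXOSC5 (-0.31) and EXOSC3 (0.12) for the exosome, and RPP14 (-0.45) and POP1 (0.20) for RNase P and MRP at 6 h. At 24 h they were SHQ1 (0.24), EXOSC6 (-0.36), EXOSC4 (0.16), RPP14 (-0.31) and RPP25 (0.26).

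Ribosomal protein genes are set beside the members here, both those of the cytosolic ribosome, which the members' products help to build, and those of the separate mitochondrial ribosome. The 59 measured cytosolic ribosomal protein genes had medians of -0.06 at 6 h and -0.11 at 24 h. The 6 h array was the lowest for 12 of them (20.3%, against 34.2% of all genes). By the mean over probe sets it was the lowest for 20 (33.9%), against 35.5% of all genes and 71.7% of the members. The 75 measured mitochondrial ribosomal protein genes had medians of -0.09 at 6 h and -0.06 at 24 h, with the 6 h array lowest for 41 (54.7%), but for 26 (34.7%) after quantile normalization. For the 46 members these values were -0.25, -0.08 and 69.6%. The share below 0 at 6 h was 86.4% for the cytosolic and 73.3% for the mitochondrial genes, against 84.8% for the members. After quantile normalization 24 of 59, 30 of 75 and 30 of 46 lay below 0 at 6 h, in the same order. With 1 array per group the difference between these sets was not tested.

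**Figure D4:**
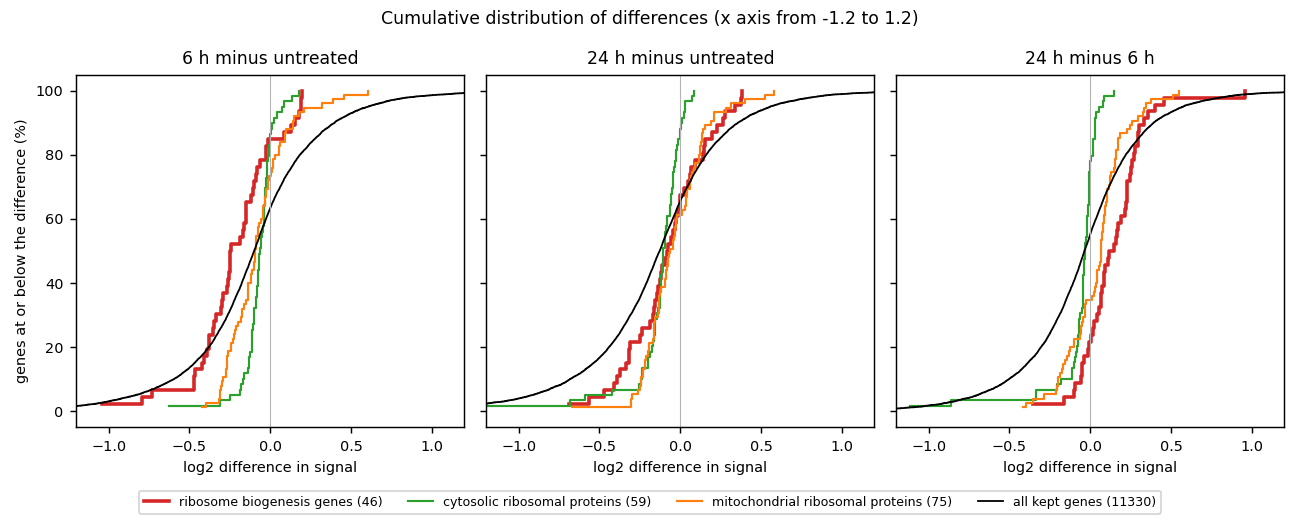
Cumulative share of genes (y axis, percent) at or below each log2 difference (x axis) for the 46 members, 59 cytosolic and 75 mitochondrial ribosomal protein genes and all 11330 genes, in the 3 comparisons. The curve of the members lies left of the other sets around its median of -0.25 at 6 h, near them at 24 h, and right of them around 0.13 between 24 h and 6 h.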

How the data were processed

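RNA of 3 MM1S cultures was measured on 1 Affymetrix array each; 1 µg of total RNA was labelled as biotinylated cRNA, per the labels' protocols. The authors deposited 1 linear signal intensity per probe set and array, for 54675 probe sets; their summarisation, background correction and scaling are not given in the sources used here. The number of arrays limits the precision. Probe sets were named through GEO's platform annotation of 2016, which gave 1 symbol for 41097, several for 1801 and none for 11777. The 62 control probe sets were left out. Probe sets with 1 symbol and a mean signal of at least 20 were kept (21495, naming 11330 genes), signals under 16 were set to 16, and log2 differences between arrays were taken. Genes take their brightest kept probe set. A difference is counted from 1.5-fold. Named genes are every member, and of each other list the highest and lowest at each time and those past 1.5-fold at both. The members, role groups and lists were chosen with earlier results of these data known. No test was run. The procedure was tested on simulated data with planted changes larger than that of any member. That test does not show how well smaller differences are recovered. Python 3.11.15, numpy 2.4.6, pandas 2.3.3 and matplotlib 3.10.9 were used.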

Additional observations from a re-analysis of the deposited data

Results flagged for a closer look

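For 10 of 46 members the difference from untreated cells had one sign at 6 h and the opposite sign at 24 h, and 9 of these were below untreated cells at 6 h and above at 24 h. The count of opposite signs is not given over all genes, so the 10 have no background here. Of all 11330 genes, 1403 had their lowest signal at 6 h and were at or above untreated cells at 24 h. Among genes lowest at 6 h these were 1403 of 3873, against 9 of 32 members. With 1 array per group the change between the times was not tested, and among the 10 members only that of RRP9 reached 1.5-fold. From 6 h to 24 h the log2 difference was 0.96 for RRP9, 0.46 for UTP20, 0.40 for DDX56, 0.29 for TSR1, 0.28 for PES1 and 0.27 for RCL1. It was 0.21 for UTP18, 0.17 for BRIX1 and 0.16 for POLR1B, and -0.36 for TCOF1, the only member that was above at 6 h and below at 24 h. These values are those of the brightest probe sets. In TCOF1, DDX56, PES1, RCL1, TSR1 and POLR1B not every kept probe set changed sign in the same way. From 6 h to 24 h the second probe sets of DDX56 and PES1, both dim, lay at -0.52. The poly-A control RNAs, at 0.56 between the same arrays, moved in the direction of the 9, and their part was not tested.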

How the results depend on the processing

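No paired analysis was possible because each group has 1 array. The median of the members was between -0.29 and -0.10 at 6 h and between 0.13 and 0.23 for 24 h against 6 h under the 8 alternatives that give a median. At 24 h against untreated cells it changed sign after quantile normalization (0.10) and after subtraction of the median gene difference (0.047). The count of members 1.5-fold lower at 6 h (3) was 5 of 34, with 12.1% of all genes, when probe sets prone to cross-hybridisation were left out, and 1 at a size of 2-fold. The count 1.5-fold lower at 24 h (1) was 0 after quantile normalization, 0 after subtraction of the median gene difference and 0 at 2-fold. The count 1.5-fold higher at 24 h than at 6 h (1) was 0 at 2-fold and 0 with a minimum mean signal of 200, an alternative added after seeing the data, which leaves out RRP9. POLR1E at 24 h (-0.55 and -0.56) under both scalings, and RRP9 at 6 h (-0.52) after quantile normalization, fell short of 1.5-fold. A floor of 32, a minimum mean of 50 and no filter on level changed no count of members. The causes were not tested. RRP9 rests on 1 dim probe set.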

Other observations

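Members with the E-box in their promoter window and members without it were described side by side. The 15 members with CACGTG had medians of -0.15 at 6 h, 0.03 at 24 h and 0.22 between 24 h and 6 h. The 24 members with a window that lacked it had medians of -0.25 at 6 h, -0.08 at 24 h and 0.09 between 24 h and 6 h. The 6 h array was the lowest for 10 of the 15 and for 17 of the 24. Over all measured genes with a window, the 972 with the letters had medians of -0.11 at 6 h, -0.11 at 24 h and 0.01 between 24 h and 6 h, and the 8313 without them had -0.10, -0.13 and -0.04. The 6 h array was the lowest for 39.4% of the 972 and 33.7% of the 8313. None of these differences was tested, and 7 measured members, POLR1E among them, had no window.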
